A study of Mus musculus with 18 samples.

Results

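The genes described here build the sulfated sugar chains heparin and heparan sulfate, together with a core protein of granules that can carry them. They were chosen by name as a list of 10 genes: Srgn, Ext1, Ext2, Ndst1, Ndst2, Glce, Hs2st1, Hs6st1, Hs6st2 and Hs3st1. The annotation of the array named a probe for 9 of the 10, 1 probe each, among 26423 probes and 19084 named genes. Ndst1 was not listed there and was not analysed here.

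The study measured RNA of 18 mouse samples of the strain C57Bl/6, 3 in each of 6 groups, 1 single-dye array per sample, to find genes specific to basophils or mast cells and genes regulated by the transcription factor Cebpa in basophils. Of the 4 groups of cultured basophils, all carrying RosaYFP/creER and kept for 5 days with IL-3 at 20 ng/ml, the first was Cebpa f/f given 100 nM 4-hydroxytamoxifen (treated floxed cells) and the second Cebpa +/+ given the same drug (treated wild-type cells). The third was Cebpa f/f without the drug (untreated floxed cells) and the fourth Cebpa +/+ without it (untreated wild-type cells). Fresh basophils came from the bone marrow of mice injected with IL-3 bound to anti-IL-3 antibody 3 days earlier, and mast cells were grown from bone marrow for 4 weeks with IL-3 at 20 ng/ml. CreER is a Cre recombinase that the drug activates, and f/f marks a gene flanked by its target sites. Which promoter drives creER is not given in the labels. The labels do not say whether the 3 samples of a group came from separate mice or cultures, so the p-values measure only how these samples vary, and that variation may be technical.

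Serglycin, encoded by Srgn, is the core protein of the granule proteoglycan, and its side chains bind histamine and proteases in the granule. A heparan sulfate chain is polymerised by the EXT1 and EXT2 proteins on a short linker sugar. It is then trimmed of acetyl groups and sulfated on nitrogen by the NDST enzymes. GLCE next converts glucuronic acid to iduronic acid, and the 2-O, 6-O and 3-O sulfotransferases (Hs2st1, Hs6st1 and Hs6st2, Hs3st1) add further sulfate groups. Heparin is the most heavily sulfated form and is made by connective-tissue-type mast cells, where NDST2 is required for it in mice.

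Cebpa RNA was set against the labels first. Cebpa had normalized intensities of 69.1, 69.4 and 57.8 in treated floxed cells, against 2973, 2822 and 2539 in treated wild-type cells. Untreated floxed cells had 1055, 935.2 and 958.8, below the 2280, 2602 and 2226 of untreated wild-type cells, so the genotypes differed in Cebpa before the drug (log2 difference -1.25 ± 0.11 SE). Fresh basophils averaged 2244 ± 144 and mast cells 55.5 ± 9.13 (SD, n = 3 each). Mitf, a mast cell transcription factor gene, averaged 1736 ± 102 in treated floxed cells, 429.0 ± 26.8 in treated wild-type cells, 152.4 ± 2.06 in fresh basophils and 4985 ± 445 in mast cells. For named genes well above background on all 3 arrays of a group, the median SD within that group was between 0.0772 and 0.10 on the log2 scale. Dimmer probes are not covered by this range, and the number of arrays limits the precision.

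Markers of other cells moved with the groups as well. The 8 basophil markers summed to 178440–180095 per array in fresh basophils and 58077–62786 in mast cells, where Il4 and Itga2 were at background. Of these 8 markers, 6 were higher in fresh basophils and 1 lower. The 7 mast cell markers on the array summed to 63063–66110 in fresh basophils, where Tph1 and Mcpt2 were at background, and to 171729–176314 in mast cells. Such sums add probes of unlike brightness, so the brightest probes set them. In fresh basophils 6 of the 7 mast cell markers were lower and 0 higher, with a median log2 difference of -7.55. Cma1 averaged only 86.4 there, Tpsb2 108.2 and Mitf 152.4. Neutrophil markers summed to 84191–87006 in fresh basophils and 550.4–596.4 in mast cells (7 of 8 higher), eosinophil markers to 48708–50084 and 349.4–402.2 (5 of 5 higher), and macrophage markers to 15304–17322 and 298.1–332.7 (6 of 6 higher). In treated floxed cells against treated wild-type ones, mast cell markers summed to 121370–128920 and 84803–86080 (5 of 7 higher), basophil markers to 147384–152936 and 193950–200483 (4 of 8 lower, 1 higher), and neutrophil markers to 1836–2050 and 11482–11893 (7 of 8 lower). Macrophage markers summed to 3157–3438 in treated floxed and 8810–9778 in treated wild-type cells (6 of 6 lower). The part of these other cells in the values below was not tested.

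Serglycin RNA was high and nearly even over the 6 groups, and none of the 9 comparisons below passed the test for it. Srgn read 21177, 21724 and 16928 in treated floxed cells, 17253, 17596 and 18698 in treated wild-type cells, 16115, 18528 and 19517 in untreated floxed cells and 16376, 15768 and 18071 in untreated wild-type cells. It read 17253, 16201 and 15993 in fresh basophils and 18175, 19430 and 17987 in mast cells. Fresh basophils lay just below mast cells with no overlap, but the difference was -0.17 ± 0.10 on the log2 scale (limma, adjusted p = 0.220), and it passed when arrays were scaled on probes above background (adjusted p = 0.0182). Between the highest and the lowest group mean the span was 1.2-fold, and every group overlapped its neighbour in the order of the means. The 3 other genes with little range were Ext1 (83.9–138.0 over all 18 arrays), Glce (211.9–355.7) and Hs2st1 (57.4–99.7).

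The other 5 genes had a wider range. Over the 6 groups the means of Hs3st1 spanned 10.9-fold, those of Ndst2 5.02-fold, those of Hs6st1 3.51-fold and those of Ext2 1.94-fold. Hs6st2 reached from background to 4545. A probe under an intensity of 30 on all 3 arrays of a group is called at background here, and its fold change is given as a bound against that limit. Intensities are compared only between groups of the same probe, never between genes.

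Ndst2, the N-deacetylase and N-sulfotransferase of mast cell heparin, separated all 6 groups with no overlap between neighbours. It read 6052, 5371 and 5156 in treated floxed cells, 3110, 2870 and 2618 in treated wild-type cells, 1647, 1530 and 1673 in untreated floxed cells and 2393, 2500 and 2184 in untreated wild-type cells. Fresh basophils read 3288, 3485 and 3545, and mast cells 8491, 8224 and 7632. Mast cells were thus highest and treated floxed cells next, at 68.1% of the mast cell mean. Fresh basophils stood at 42.4% of it, treated wild-type cells at 35.3%, untreated wild-type cells at 29.1% and untreated floxed cells at 19.9%.

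Hs6st2, a 6-O-sulfotransferase, read 4130, 4545 and 4125 in treated floxed cells, against 635.6, 608.6 and 633.0 in treated wild-type cells. The untreated cells were close to each other, with 501.1, 471.6 and 495.9 in floxed and 522.2, 495.7 and 492.8 in wild-type cells, and their ranges overlapped. Fresh basophils read 5.44, 3.83 and 8.72, at background, and mast cells 3724, 3359 and 3365. The treated floxed arrays were all above the mast cell arrays, at 122.5% of their mean, while the other cultured groups stood at 14.1% to 17.97%.

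Hs6st1, another 6-O-sulfotransferase gene, had a different order. It read 1341, 1389 and 1113 in treated floxed cells, 444.6, 462.1 and 618.6 in treated wild-type cells, 1071, 1451 and 1411 in untreated floxed cells and 741.5, 779.7 and 880.4 in untreated wild-type cells. Fresh basophils read 496.5, 470.2 and 454.3, and mast cells 1765, 1836 and 1389. Mast cells and both floxed groups overlapped at the high end, and treated wild-type cells and fresh basophils at the low end.

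Hs3st1, a 3-O-sulfotransferase, was highest in mast cells, whose arrays at 2194, 2094 and 2491 stood far above all others. Treated floxed cells read 407.7, 386.3 and 422.0 and treated wild-type cells 422.1, 413.6 and 324.3, which overlapped. Untreated floxed cells read 235.3, 262.2 and 229.0, untreated wild-type cells 219.2, 195.8 and 207.3, and fresh basophils 442.7, 489.9 and 456.6. No basophil group reached more than 20.5% of the mast cell mean.

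Ext2, a subunit of the chain polymerase, had its highest values in the drug-treated cultures. It read 591.6, 598.7 and 612.0 in treated floxed cells and 573.0, 592.1 and 571.2 in treated wild-type cells, which overlapped. Untreated floxed cells read 457.7, 454.4 and 454.8, untreated wild-type cells 317.6, 303.3 and 309.4, fresh basophils 350.8, 340.9 and 339.6, and mast cells 361.0, 383.4 and 404.8. Apart from the treated groups, no neighbours in this order overlapped.

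**Figure D1:**
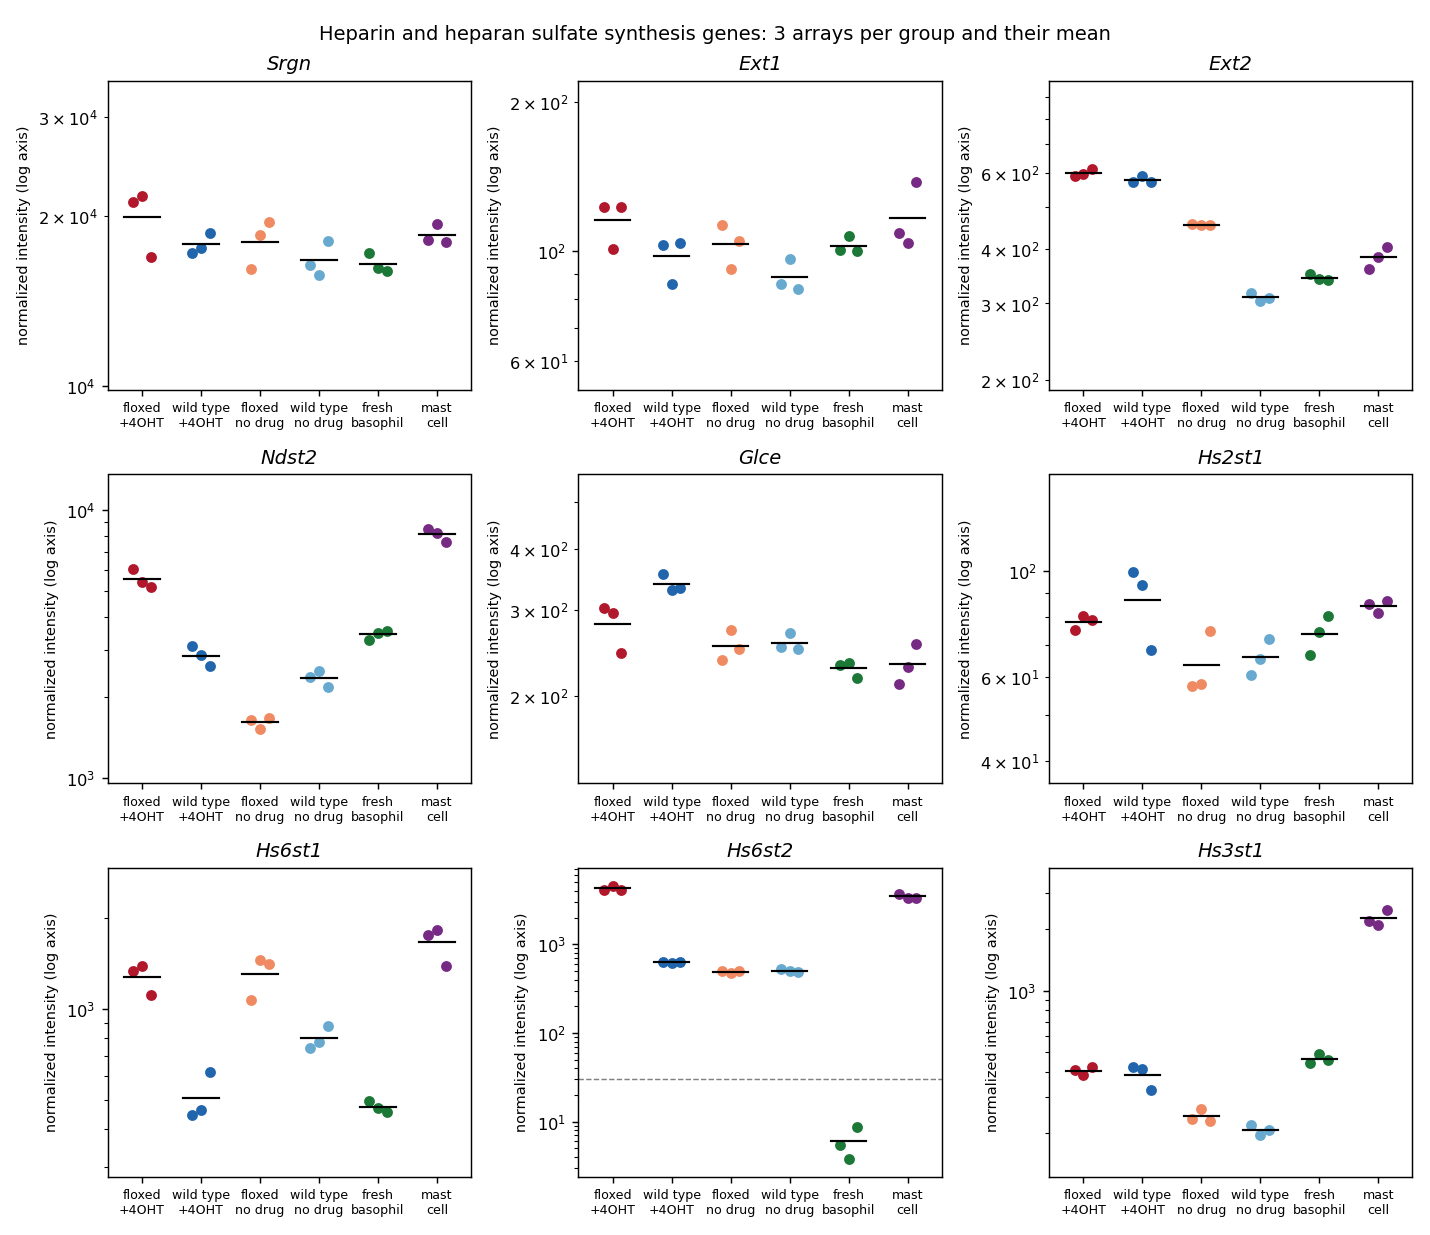
Normalized intensity (log axis, arbitrary units) of the 9 measured genes in each of 6 groups, with 1 point per array and a line at the mean of 3 arrays; the dashed line in the Hs6st2 panel marks the background limit of 30. Srgn is nearly level, Ndst2 and Hs6st2 are high in treated floxed cells and mast cells, and Hs3st1 is high in mast cells alone.

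The promoters of Hs6st2, Ndst2 and Hs6st1 are shown because these genes were all higher in treated floxed than in treated wild-type cells and lower in fresh basophils than in mast cells, as tested below. That of Ext2 is shown as the only other one with a motif match. RefSeq sequences of 300 bases (GRCm38.p6), from 250 before to 50 after the start of the transcript, matched 8 of the 9 genes, with no entry for Ext1. Hs6st2 has 2 annotated starts. Capitals mark a match to 1 of 4 motifs, which were chosen with results known: the E-box CACGTG, the M-box core CATGTG, the spaced C/EBP half-sites TTGCNNAA and the GATA motif AGATAA, each on both strands and none contained in another.
Hs6st2, upstream start, chrX:51681553-51681852, minus strand: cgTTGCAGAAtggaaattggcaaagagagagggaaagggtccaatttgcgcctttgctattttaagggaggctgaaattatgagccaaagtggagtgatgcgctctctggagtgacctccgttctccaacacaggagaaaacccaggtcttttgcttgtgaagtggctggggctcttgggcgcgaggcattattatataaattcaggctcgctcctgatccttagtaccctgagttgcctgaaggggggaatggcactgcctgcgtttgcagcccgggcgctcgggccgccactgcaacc
Hs6st2, downstream start, chrX:51680428-51680727, minus strand: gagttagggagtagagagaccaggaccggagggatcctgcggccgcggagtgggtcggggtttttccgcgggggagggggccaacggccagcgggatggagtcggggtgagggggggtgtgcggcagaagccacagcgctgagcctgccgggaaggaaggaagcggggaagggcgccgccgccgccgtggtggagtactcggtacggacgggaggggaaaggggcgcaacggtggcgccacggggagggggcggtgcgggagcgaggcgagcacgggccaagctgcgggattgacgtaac
Ndst2, chr14:20734513-20734812, minus strand: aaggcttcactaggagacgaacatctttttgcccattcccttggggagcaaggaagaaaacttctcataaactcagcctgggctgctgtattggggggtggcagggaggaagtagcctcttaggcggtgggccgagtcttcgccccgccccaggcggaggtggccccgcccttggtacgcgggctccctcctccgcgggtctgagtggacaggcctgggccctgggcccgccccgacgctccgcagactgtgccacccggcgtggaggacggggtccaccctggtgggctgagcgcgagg
Hs6st1, chr1:36068150-36068449, plus strand: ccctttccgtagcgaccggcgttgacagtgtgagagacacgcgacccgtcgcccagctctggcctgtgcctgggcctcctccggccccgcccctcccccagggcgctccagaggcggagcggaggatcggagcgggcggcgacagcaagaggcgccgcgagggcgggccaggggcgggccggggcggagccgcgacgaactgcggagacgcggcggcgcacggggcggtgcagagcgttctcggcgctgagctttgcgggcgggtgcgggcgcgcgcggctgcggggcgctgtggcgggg
Ext2, chr2:93822519-93822818, minus strand: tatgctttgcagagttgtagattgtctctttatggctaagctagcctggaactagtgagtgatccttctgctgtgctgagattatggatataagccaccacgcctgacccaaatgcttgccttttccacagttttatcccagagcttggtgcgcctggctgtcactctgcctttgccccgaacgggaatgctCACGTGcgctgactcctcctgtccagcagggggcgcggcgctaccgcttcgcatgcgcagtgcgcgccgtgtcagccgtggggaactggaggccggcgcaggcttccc

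The upstream Hs6st2 promoter holds TTGCAGAA with its first base at -248 from the start, and the Ext2 promoter holds CACGTG at -58. Ndst2, Hs6st1 and the downstream Hs6st2 start hold none of the 4 motifs in these windows. Among 32851 promoters of the same length, 7.15% hold CACGTG, 14.2% CATGTG, 10.8% TTGCNNAA and 11.2% AGATAA. A match is a run of letters, not evidence of binding, and a window without one says nothing of the factor. The GC content was 53.7% at the upstream and 71.7% at the downstream Hs6st2 start, 66.7% at Ndst2, 78.0% at Hs6st1 and 58.0% at Ext2.

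Fresh basophils were compared with mast cells first, the contrast of cell types that the study names. Of the 9 genes, 4 were lower in fresh basophils and 0 higher, where 22.3% of all 26423 probes were called lower and 18.3% higher (limma with Benjamini-Hochberg adjustment, threshold 0.05). Among the 14844 probes above background, 5475 were lower and 4587 higher, and 5 of the 9 genes were then lower. All 4 genes of the main count are sulfation enzymes. In RNA of bulk samples, fewer cells of a type and less RNA per cell cannot be told apart, and for fresh basophils the cell type also coincides with growth in the animal rather than in culture. Hs6st2 was at least 116-fold lower in fresh basophils (at least 69.6-fold with a background limit of 50; adjusted p = 3.94e-19). Hs3st1 fell by 2.25 ± 0.10 on the log2 scale (adjusted p = 8.67e-12), to 463.1 ± 24.3 in fresh basophils against 2260 ± 207 in mast cells. Hs6st1 fell by 1.77 ± 0.15 (adjusted p = 2.71e-08) and Ndst2 by 1.23 ± 0.091 (adjusted p = 5.17e-09). The 5 genes of the core protein, the polymerase, the epimerase and 2-O-sulfation gave log2 differences between -0.17 and -0.02, with adjusted p from 0.0953 for Ext2 to 0.880 for Glce. The Ext2 arrays did not overlap. Ext2 was called lower with an offset of 50, without the dimmest 30% of probes, and with only probes above background. Without between-array normalization Ext2, Ext1 and Glce were called higher (0.40, 0.30 and 0.50). The median over the 9 genes was -0.17, against -0.04 over all probes.

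Cultured wild-type cells without the drug gave the same comparison without the difference of fresh and cultured cells, although their transgenes and time in culture differed from those of mast cells. Against mast cells, 6 of the 9 genes were lower in untreated wild-type cells and 0 higher, where 22.3% of all probes were lower and 16.9% higher. Hs3st1 fell by 3.35 ± 0.10, Hs6st2 by 2.75 ± 0.087, Ndst2 by 1.78 ± 0.091 and Hs6st1 by 1.03 ± 0.15 on the log2 scale, with adjusted p between 4.48e-14 and 1.85e-05. Both polymerase subunits were also called: Ext2 fell by 0.29 ± 0.068 (adjusted p = 0.00208) and Ext1 by 0.34 ± 0.11 (adjusted p = 0.0223). Without between-array normalization both calls were lost (Ext2 log2 difference -0.03, adjusted p = 0.820; Ext1 -0.05, adjusted p = 0.734), and the Ext1 call was also lost when scaling used probes above background (adjusted p = 0.0892). The Ext1 call was lost without mast cell array 3 (adjusted p = 0.129) or without untreated wild-type array 1 (0.0670) or 3 (0.0767). Hs2st1 missed the threshold (-0.29 ± 0.12, adjusted p = 0.0546) and passed it without untreated wild-type array 3, treated wild-type array 1 or 3, or untreated floxed array 3 (adjusted p 0.0220–0.0495). The median of the 9 was -0.34, against -0.04 over all probes.

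The same untreated wild-type cells were also set against fresh basophils. Of the 9 genes, 2 were higher in the cultured cells (17.3% of all probes were) and 2 lower (17.6% of all probes). Hs6st2 was at least 16.8-fold higher (at least 10.1-fold with a limit of 50; adjusted p = 3.79e-16) and Hs6st1 rose by 0.74 ± 0.15 on the log2 scale (adjusted p = 6.85e-04; 0.44 and 0.0679 without between-array normalization, which ended the call). Hs3st1 fell by 1.10 ± 0.10 (adjusted p = 1.60e-07) and Ndst2 by 0.54 ± 0.091 (adjusted p = 1.20e-04). Thus both 6-O-sulfotransferase genes were higher, and the N- and 3-O-sulfation genes lower, in the cultured cells. Over the 9 genes the median was -0.13, against 0.01 over all probes. Neutrophil markers summed to 12207–13986 in untreated wild-type cells and 84191–87006 in fresh basophils, and mast cell markers to 78017–80499 and 63063–66110 (6 of 8 neutrophil markers lower and 1 higher, 6 of 7 mast cell markers higher). Eosinophil markers summed to 4646–4818 in untreated wild-type cells and 48708–50084 in fresh basophils, with 5 of 5 lower. Macrophage markers summed to 9193–10407 and 15304–17322 (4 of 6 lower, 2 higher), erythroid markers to 12.7–23.7 and 395.4–408.7 (2 of 2 lower), and T and NK cell markers to 252.7–254.3 and 3837–4301 (2 of 3 lower). The part of these markers in the values was not tested.

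The floxed and wild-type cells given the drug were compared next, a contrast that also holds genotype differences present without the drug. Of the 9 genes, 3 were higher and 1 lower, where 15.9% of all probes were higher and 14.9% lower. Among the 14844 probes above background, 4325 were higher and 4047 lower, with the same counts for the 9 genes. The 3 higher genes are N- and 6-O-sulfation enzymes. Hs6st2 was higher by 2.74 ± 0.087 on the log2 scale (adjusted p = 6.07e-13), with 4267 ± 241 in treated floxed cells against 625.7 ± 14.9 in treated wild-type cells. Hs6st1 was higher by 1.32 ± 0.15 (adjusted p = 2.64e-06) and Ndst2 by 0.94 ± 0.091 (adjusted p = 4.40e-07). For Hs6st1 the genotypes already differed by 0.69 without the drug. With the drug Hs6st1 changed by -0.03 in floxed cells and by -0.65 in wild-type cells. All 3 higher genes are also among the 4 genes that were lower in fresh basophils than in mast cells, while the remaining one, Hs3st1, differed by 0.07 ± 0.10 (adjusted p = 0.666). Glce was lower by a small margin (-0.26 ± 0.094, adjusted p = 0.0428). That call was lost without any 1 of 10 arrays (all 3 treated wild-type, all 3 fresh basophil, treated floxed array 3, untreated floxed array 3 and untreated wild-type arrays 1 and 3), with log2 differences of -0.28 to -0.17 and adjusted p of 0.0509–0.208. It was lost too with median scaling (adjusted p = 0.245) and without between-array normalization (0.573). The median of the 9 was 0.15, against -0.004 over all probes.

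The genotypes differed without the drug too. Of the 9 genes, 2 were higher in untreated floxed than in untreated wild-type cells (8.54% of all probes) and 1 lower (7.27% of all probes). Hs6st1 was higher by 0.69 ± 0.15 on the log2 scale (adjusted p = 0.00331) and Ext2 by 0.53 ± 0.068 (adjusted p = 2.70e-05). Ndst2 was lower (-0.54 ± 0.091, adjusted p = 4.36e-04), opposite to its sign with the drug, a call lost with median scaling of the arrays (adjusted p = 0.172). Hs6st2 differed by -0.04 ± 0.087 (adjusted p = 0.844). The median of the 9 was 0.11, against 0.002 over all probes. Neutrophil markers summed to 5486–6182 in untreated floxed and 12207–13986 in untreated wild-type cells, with 5 of 8 lower. Macrophage markers summed to 6933–8310 and 9193–10407 (5 of 6 lower, 1 higher), and mast cell markers to 75811–76405 and 78017–80499 (4 of 7 lower). Eosinophil markers summed to 7496–8514 in untreated floxed and 4646–4818 in untreated wild-type cells (1 of 5 higher, 2 lower). Their part was not tested. The untreated floxed cells had 983.1 ± 63.5 of Cebpa against 2370 ± 203 in untreated wild-type cells.

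Within the floxed genotype, 4 of the 9 genes were higher with the drug (9.92% of all probes) and 0 lower (9.67% of all probes). Hs6st2 rose by 3.08 ± 0.087 (adjusted p = 4.14e-13) and Ndst2 by 1.76 ± 0.091 (adjusted p = 4.88e-10), to 5526 ± 468 in treated against 1617 ± 75.9 in untreated floxed cells. Hs3st1 rose by 0.71 ± 0.10 (adjusted p = 8.21e-05) and Ext2 by 0.39 ± 0.068 (adjusted p = 4.60e-04) and the Ext2 call was lost with median scaling (adjusted p = 0.287). Hs6st1 differed by -0.03 ± 0.15 (adjusted p = 0.941). Over the 9 genes the median was 0.25, against -0.003 over all probes. Mast cell markers summed to 121370–128920 in treated and 75811–76405 in untreated floxed cells (6 of 7 higher), and neutrophil markers to 1836–2050 and 5486–6182 (7 of 8 lower). Their part was not tested.

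The drug effect was also measured in wild-type cells, which kept Cebpa. Of the 9 genes, 5 were higher in treated than in untreated wild-type cells (11.2% of all probes) and 1 lower (10.1% of all probes). Ext2 rose by 0.87 ± 0.068 (adjusted p = 2.65e-07), Hs3st1 by 0.84 ± 0.10 (adjusted p = 2.05e-05) and Glce by 0.38 ± 0.094 (adjusted p = 0.00709; 0.171 without between-array normalization, which ended the call), while Hs6st1 fell by 0.65 ± 0.15 (adjusted p = 0.00411). Hs6st2 (0.30 ± 0.087, adjusted p = 0.0180) and Ndst2 (0.28 ± 0.091, adjusted p = 0.0381) passed narrowly. The Hs6st2 call was lost without treated wild-type array 1 or untreated wild-type array 2 or 3 (adjusted p 0.0563–0.0612), with median scaling (0.0694) and without between-array normalization (0.540). The Ndst2 call was lost without treated wild-type array 1 or 2 or untreated wild-type array 1 or 3 (adjusted p 0.0737–0.161), with median scaling (0.252) and when scaling used probes above background (0.263), and with unnormalized arrays its sign turned. Hs2st1 missed the threshold (0.32 ± 0.12, adjusted p = 0.0620) and passed it without treated wild-type array 3 (0.00643) or untreated floxed array 3 (0.0489). Over the 9 genes the median was 0.30, against 0.006 over all probes.

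The interaction asks whether the drug effect differed between the genotypes, and it tests that difference directly. It was positive, with a larger rise in floxed cells, for 2 of the 9 genes (6.17% of all probes) and negative for 1 (6.46% of all probes). For Hs6st2 it was 2.78 ± 0.12 on the log2 scale (adjusted p = 2.92e-10) and for Ndst2 1.48 ± 0.13 (adjusted p = 7.57e-07). For Ext2 it was -0.48 ± 0.096 (adjusted p = 0.00268), the rise being larger in wild-type cells, and this call did not hold on unnormalized arrays (-0.29, adjusted p = 0.126). For Hs6st1 it was 0.62 ± 0.21 and missed the threshold (adjusted p = 0.0630), but passed without treated wild-type array 3, treated floxed array 3 or mast cell array 3 (adjusted p 0.0194–0.0481). For Hs3st1, which rose with the drug in both genotypes, it was -0.13 ± 0.15 (adjusted p = 0.650). Over the 9 genes the median was 0.02, against -0.009 over all probes. The sums of mast cell markers were 75811–76405 in untreated floxed and 78017–80499 in untreated wild-type cells, beside the higher sums in treated floxed cells given above.

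**Figure D2:**
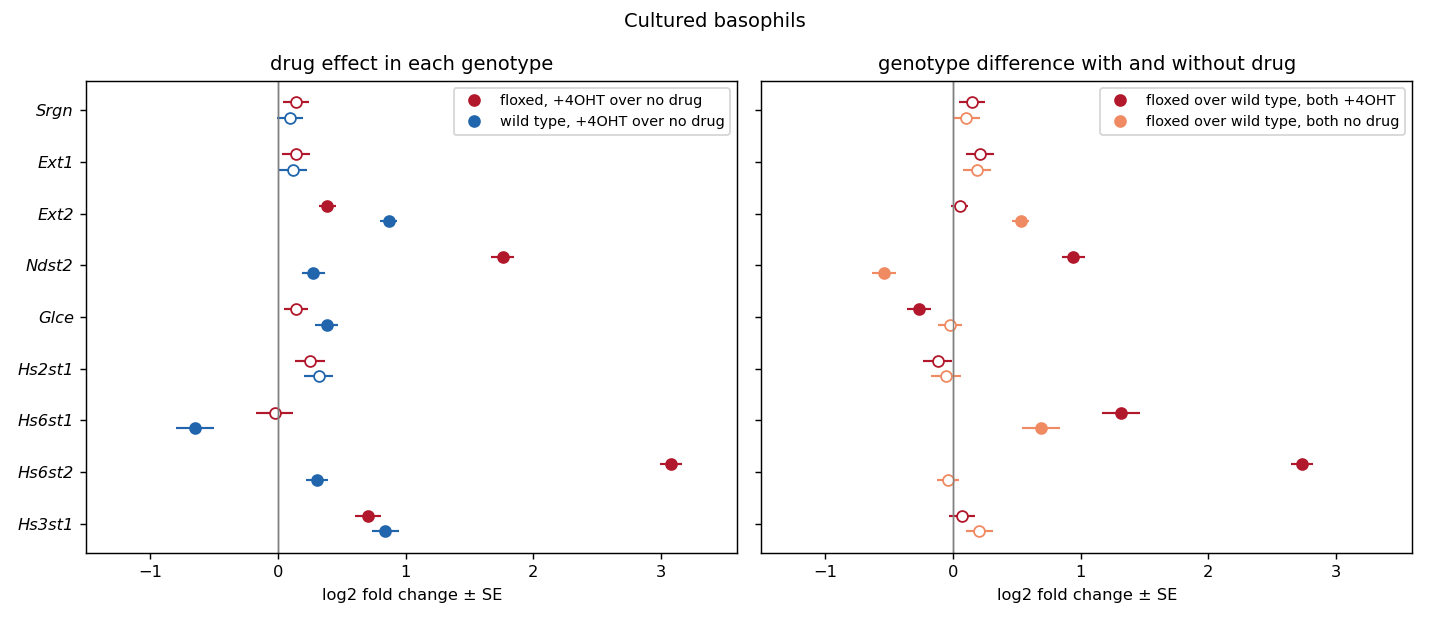
Log2 fold change ± SE of the 9 genes in cultured basophils (3 arrays per group): left, 4-hydroxytamoxifen over no drug in floxed and wild-type cells; right, floxed over wild type with and without the drug; filled points passed the test. Hs6st2 and Ndst2 have the largest drug effects in floxed cells (3.08 and 1.76) and small ones in wild-type cells (0.30 and 0.28). Ext2 and Hs3st1 are also higher with the drug in both genotypes.

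Treated floxed cells were also placed beside mast cells. Of the 9 genes, 3 were higher in treated floxed cells (15.7% of all probes) and 2 lower (19.6% of all probes). Hs3st1 fell by 2.43 ± 0.10 on the log2 scale (adjusted p = 5.76e-12) and Ndst2 fell by 0.56 ± 0.091 (adjusted p = 1.05e-04). Ext2 was higher by 0.63 ± 0.068 (adjusted p = 9.97e-07), Hs6st2 by 0.29 ± 0.087 (adjusted p = 0.0139) and Glce by 0.26 ± 0.094 (adjusted p = 0.0414). Without treated floxed array 2 the count was 3 of 9, since Hs6st2 (adjusted p = 0.0680) and Glce (0.136) were lost. The Hs6st2 call was lost too with median scaling (adjusted p = 0.688) and when scaling used probes above background (0.196), and the Glce call with median scaling (0.205). The Glce call was also lost without treated floxed array 1, mast cell array 1 or 2, untreated wild-type array 1 or 3, untreated floxed array 3 or fresh basophil array 2 (adjusted p 0.0502–0.164). Hs6st1 missed the threshold (-0.37 ± 0.15, adjusted p = 0.0641) and passed it without mast cell array 3, treated wild-type array 3 or untreated floxed array 1 (adjusted p 0.0223–0.0431). The median of the 9 was -0.01, against -0.05 over all probes. Mast cell markers summed to 121370–128920 in treated floxed cells and 171729–176314 in mast cells, and their part was not tested. These comparisons share the mast cell arrays or other groups, so their values are given side by side only.

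**Figure D3:**
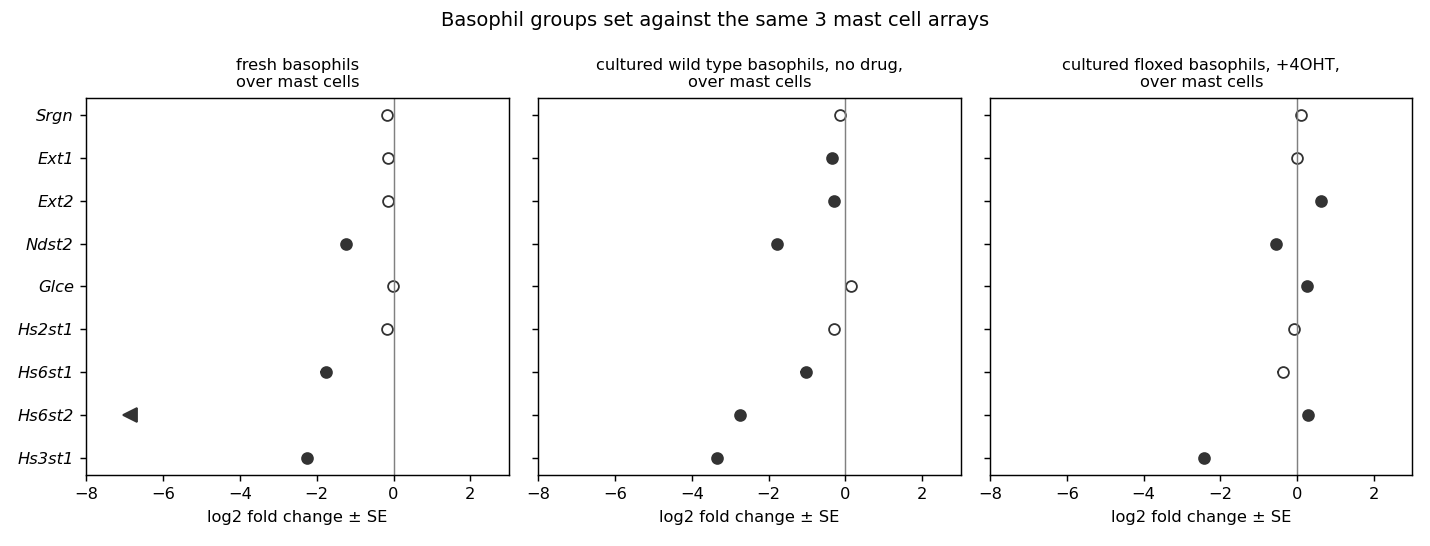
Log2 fold change ± SE of the 9 genes in 3 basophil groups over the same 3 mast cell arrays; filled points passed the test, error bars are mostly smaller than the points, and the triangle marks the bound for Hs6st2, at background in fresh basophils. Hs3st1 lies between -3.35 and -2.25 in all 3 panels, whereas Hs6st2 moves from its bound through -2.75 in untreated wild-type cells to 0.29 in treated floxed cells.

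The sulfate donor and the other genes of the pathway were counted by role, beside the 9 genes. Of 9 measured genes of sugar nucleotide and sulfate donor supply (13 listed), 2 were higher and 4 lower in fresh basophils than in mast cells, with a median log2 difference of -0.25, where 18.3% of all probes were higher and 22.3% lower. In treated floxed cells 3 were higher and 3 lower than in treated wild-type cells, with a median of 0.001, where 15.9% of all probes were higher and 14.9% lower. Untreated levels are given beside the comparisons of the treated genotypes, since some of those gaps were present without the drug or arose in the wild-type cells. Papss2 and Papss1 make the activated sulfate that every sulfotransferase uses. Papss2 averaged 4365 ± 338 in treated floxed cells and 1855 ± 57.8 in treated wild-type cells (log2 difference 1.23 ± 0.082, adjusted p = 5.02e-09), and 3007 ± 162 in fresh basophils and 6755 ± 292 in mast cells (-1.16 ± 0.082, adjusted p = 2.75e-09). Without the drug it averaged 1231 in floxed and 1217 in wild-type cells, and its interaction was 1.21 (adjusted p = 2.35e-06). Papss1 averaged 1115 ± 74.7 in treated floxed and 691.8 ± 106 in treated wild-type cells (0.68 ± 0.098, adjusted p = 3.65e-05), and 1163 and 893.0 without the drug. Ugdh and Ugp2, which make UDP-glucuronic acid and its precursor, were lower in the same contrast, with log2 differences of -0.72 and -0.63. Ugdh averaged 757.7 in treated floxed and 1253 in treated wild-type cells, and 720.3 and 681.4 without the drug. Ugp2 averaged 219.8 and 347.3 with the drug, and 248.1 and 240.2 without it. The drug effect in wild-type cells was 0.86 for Ugdh (adjusted p = 4.65e-05) and 0.51 for Ugp2 (adjusted p = 0.00208).

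The linker region, on which both heparan and chondroitin chains start, had 6 of 7 listed genes on the array. In fresh basophils 4 were higher and 2 lower than in mast cells (median 0.27; 18.3% and 22.3% of all probes), and in treated floxed cells 2 were higher and 3 lower than in treated wild-type cells (median -0.23; 15.9% and 14.9% of all probes). Xylt2, a xylosyltransferase that begins the linker, averaged 142.4 ± 15.8 in fresh basophils and 237.0 ± 15.3 in mast cells, and 319.0 ± 63.1 in treated floxed cells and 152.5 ± 7.54 in treated wild-type cells (log2 difference 0.98 ± 0.13, adjusted p = 1.30e-05). Without the drug it averaged 330.5 in floxed and 258.4 in wild-type cells. B4galt7 and Pxylp1, a galactosyltransferase and a xylose phosphatase of the linker, were lower in treated floxed than in treated wild-type cells, with log2 differences of -0.49 and -1.03. B4galt7 averaged 118.4 and 172.7 in these groups, and 125.7 and 106.1 in untreated floxed and wild-type cells. Pxylp1 averaged 67.3 and 153.2 with the drug, and 151.5 and 102.6 without it. In fresh basophils Pxylp1 was at least 16.4-fold and Xylt1 at least 1.43-fold higher than in mast cells, where both were at background. B4galt7 was lower, at 81.5 in fresh basophils against 131.4 in mast cells.

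Of the 13 measured other enzymes of heparan sulfate chains (14 listed), 7 were at background in every group: Hs6st3, Hs3st2, Hs3st3b1, Hs3st4, Hs3st5, Hs3st6 and Sulf1. In fresh basophils 2 of the 13 were higher and 5 lower (median -0.16), where 18.3% and 22.3% of all probes were. In treated floxed cells 2 were higher and 1 lower than in treated wild-type cells (median 0.03), where 15.9% and 14.9% of all probes were. Extl3, which starts heparan sulfate chains on the linker, averaged 988.4 ± 122 in treated floxed and 568.8 ± 22.4 in treated wild-type cells (log2 difference 0.77 ± 0.090, adjusted p = 4.02e-06), and 808.2 and 559.9 without the drug. Sulf2, an extracellular enzyme that removes 6-O-sulfate, averaged 81.6 ± 13.1 in treated floxed and 130.8 ± 11.5 in treated wild-type cells (-0.59 ± 0.10, adjusted p = 2.67e-04), and 172.1 ± 9.72 in fresh basophils and 39.7 ± 4.99 in mast cells (1.76 ± 0.10, adjusted p = 2.82e-10). Its levels without the drug were 65.2 in floxed and 106.0 in wild-type cells. Sulf2 had the opposite sign to Hs6st1 and Hs6st2 in both contrasts.

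Chondroitin sulfate is the other chain that serglycin can carry. Of its 16 enzymes, 8 were higher and 4 lower in fresh basophils than in mast cells (median 0.21; 18.3% and 22.3% of all probes). In treated floxed cells 3 were higher and 7 lower than in treated wild-type cells (median -0.24; 15.9% and 14.9% of all probes). Chpf, a cofactor of the chain polymerase, averaged 688.3 ± 12.3 in fresh basophils and 46.1 ± 5.93 in mast cells (log2 difference 3.51 ± 0.085, adjusted p = 1.66e-15), while the polymerase gene Chsy1 averaged 1468 ± 26.9 and 7293 ± 742 (-2.30 ± 0.11, adjusted p = 1.62e-11). The chondroitin 4-O-sulfotransferase genes Chst13 and Chst12 were lower in treated floxed than in treated wild-type cells, with log2 differences of -2.32 ± 0.12 and -1.19 ± 0.084 (adjusted p = 3.34e-10 and 9.96e-09). Chst12 averaged 684.8 ± 27.3 in treated floxed and 1587 ± 44.6 in treated wild-type cells, with no overlap, and 678.1 and 707.4 without the drug. Chst13 averaged 53.3 and 329.3 with the drug, and 52.3 and 129.2 without it. With the drug both rose in wild-type cells, Chst12 by 1.15 (adjusted p = 1.49e-07) and Chst13 by 1.25 (adjusted p = 2.81e-06), whereas in floxed cells the log2 differences were 0.01 and 0.02 (adjusted p = 0.949 and 0.938).

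Of 18 other core proteins, 9 were higher and 2 lower in fresh basophils than in mast cells (median 0.60; 18.3% and 22.3% of all probes), and 3 were higher and 7 lower in treated floxed than in treated wild-type cells (median -0.24; 15.9% and 14.9% of all probes). Gpc1, a glypican of the cell surface, averaged 3802 ± 175 in treated floxed and 1734 ± 20.4 in treated wild-type cells (log2 difference 1.12 ± 0.078, adjusted p = 8.13e-09), and 2656 and 1437 without the drug. Cd44, the hyaluronan receptor, averaged 88.2 ± 6.48 in treated floxed and 235.5 ± 15.6 in treated wild-type cells (-1.27 ± 0.088, adjusted p = 8.30e-09), and 91.0 and 163.8 without the drug. Gpc4 was at least 16.7-fold higher in fresh basophils than in mast cells, where it was at background.

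Of 14 measured genes of glycosaminoglycan breakdown (16 listed), 4 were higher and 5 lower in fresh basophils than in mast cells (median -0.08; 18.3% and 22.3% of all probes). In treated floxed cells 5 were higher and 4 lower than in treated wild-type cells (median -0.13; 15.9% and 14.9% of all probes). Hpse, the heparanase, was at least 4.75-fold higher in fresh basophils than in mast cells, and averaged 34.4 ± 10.6 in treated floxed and 115.8 ± 9.36 in treated wild-type cells (log2 difference -1.41 ± 0.13, adjusted p = 2.81e-07), and 82.9 and 161.4 without the drug. Naglu and Sgsh, lysosomal enzymes that degrade heparan sulfate, were higher in treated floxed than in treated wild-type cells, by 0.83 ± 0.091 and 0.78 ± 0.091 (adjusted p = 1.98e-06 and 3.70e-06). Naglu averaged 6599 in treated floxed and 3699 in treated wild-type cells, and was already higher without the drug, at 6850 and 4345 (log2 difference 0.65, adjusted p = 7.02e-05). Sgsh averaged 1627 and 936.0 with the drug and 1334 and 1370 without it, and the drug effect in wild-type cells was -0.54 (adjusted p = 3.57e-04). Ids, the iduronate sulfatase, averaged 152.1 ± 21.0 in treated floxed and 20.2 ± 14.0 in treated wild-type cells (2.27 ± 0.19, adjusted p = 7.58e-08), and 100.1 and 68.9 without the drug.

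Of 12 measured granule proteins that bind these chains, most of them proteases (14 listed), 4 were higher and 6 lower in fresh basophils than in mast cells (median -0.36; 18.3% and 22.3% of all probes). In treated floxed cells 6 were higher and 1 lower than in treated wild-type cells (median 0.50; 15.9% and 14.9% of all probes). The tryptase gene Tpsb2 averaged 8839 ± 1019 in treated floxed and 633.3 ± 9.29 in treated wild-type cells (log2 difference 3.76 ± 0.12, adjusted p = 4.99e-13), and 1056 and 1226 without the drug. The chymase gene Cma1 averaged 26829 ± 1691 in treated floxed and 11072 ± 474 in treated wild-type cells (1.28 ± 0.080, adjusted p = 2.38e-09), 6226 and 8788 without the drug, and 86.4 ± 6.99 in fresh basophils and 27943 ± 1144 in mast cells. Prg2, the eosinophil major basic protein, was higher in treated floxed than in treated wild-type cells, by 1.76 ± 0.089 (adjusted p = 1.60e-10). It averaged 10555 in treated floxed and 3098 in treated wild-type cells, 7640 and 3890 without the drug, and 38230 ± 407 in fresh basophils and 170.9 ± 24.9 in mast cells. Several of these proteins are also in the marker lists given above.

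**Figure D4:**
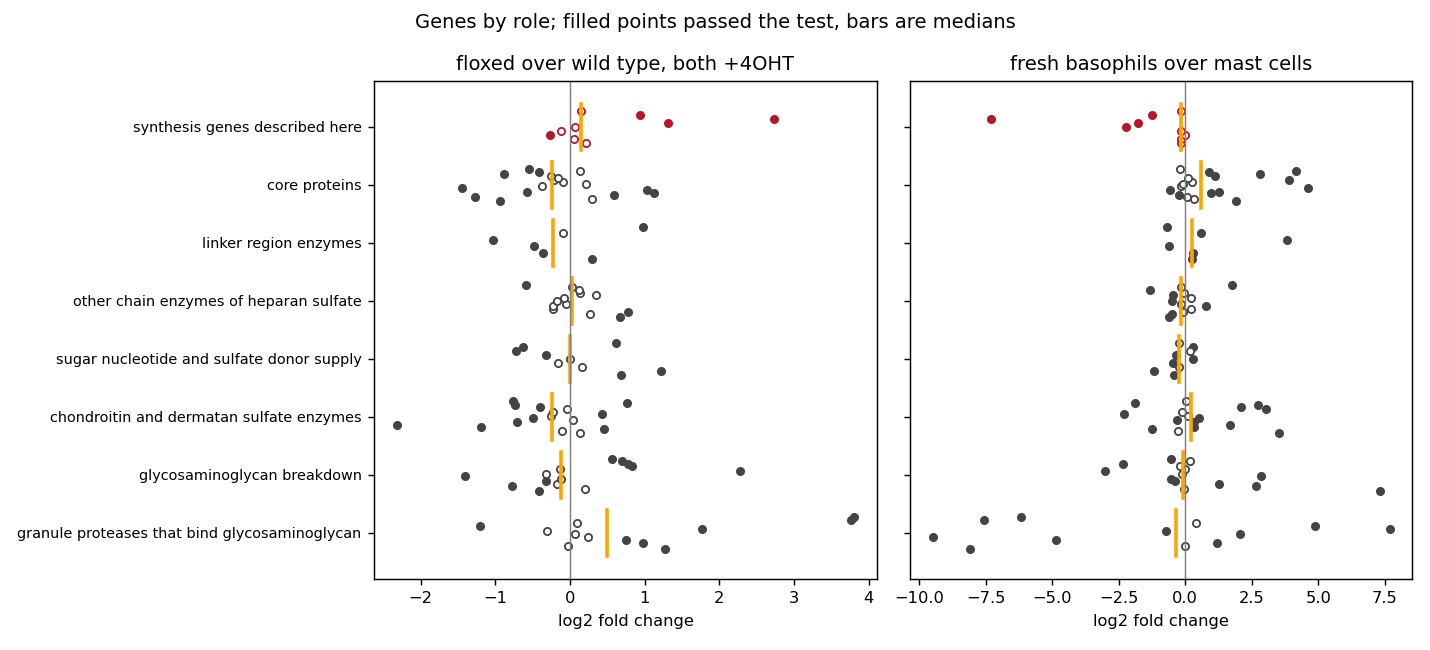
Log2 fold change of each measured gene by role (points, filled where the test was passed) with the median of each role (orange bar), for treated floxed over treated wild-type cells (left) and fresh basophils over mast cells (right); probes at background in 1 group are drawn at the fitted value, which is not a bound. The 9 synthesis genes have medians of 0.15 and -0.17, and the granule proteins 0.50 and -0.36.

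The genes whose pattern over the 18 arrays was most like that of each widely ranging gene were looked up among 12209 genes above background in at least 1 group, as a description in which all 18 arrays share their group differences. The nearest to Ndst2 were Papss2 (r = 0.962) and Cuta (r = 0.955). Papss2 had the same order at the top, with 6755 in mast cells, 4365 in treated floxed cells and 3007 in fresh basophils. The nearest to Hs6st2 were BC029722 (r = 0.991) and the creatine transporter gene Slc6a8 (r = 0.989). Slc6a8 averaged 334.2 ± 21.9 in treated floxed cells, 173.5 ± 6.08 in treated wild-type cells, 49.9 ± 6.33 in fresh basophils and 311.6 ± 10.97 in mast cells. The nearest to Hs6st1 were 3110040N11Rik (r = 0.965) and Pctp (r = 0.964), and Pctp, a phosphatidylcholine transfer protein gene, averaged 435.6 ± 106 and 372.3 ± 79.5 in treated and untreated floxed cells against 72.0 ± 13.7 and 143.7 ± 13.1 in the wild-type ones. The nearest to Hs3st1 were Hnrnpll (r = 0.985) and Ralgps2 (r = 0.982), both far higher in mast cells (8203 ± 441 and 500.9 ± 32.1) than in any basophil group.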

How the data were processed

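RNA of 18 mouse samples in 6 groups of 3 was measured on single-dye arrays. Per the labels' protocols, total RNA was taken up in Trizol and purified on RNeasy columns. The authors deposited linear, background-subtracted intensity values, down to -9 and up to 65478; the scanner, whether values were normalized earlier and which part of a transcript a probe reads were not given in the sources used here. Of 26423 probes, 21876 carried 1 gene symbol in the platform annotation and 4547 none. Raw medians were 24–42 per array and 47.3% to 54.8% of the probes exceeded an intensity of 30. The shares of all probes set beside counts include dim probes and so run below those of expressed probes. Among the 14844 probes above background, higher and lower calls were 2687 and 2249 for the untreated genotypes. For the drug they were 2867 and 2884 in floxed and 3321 and 3104 in wild-type cells. Against mast cells they were 4344 and 5551 for untreated wild-type and 4131 and 5044 for treated floxed cells. No pair of arrays held identical values.

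All 18 arrays were quantile normalized together, transformed as log2(intensity + 16) and fitted with 1 mean per group in limma 3.58.1 (R 4.3.3, lmFit and eBayes, two-sided). Contrasts were adjusted by Benjamini-Hochberg over all probes, with a threshold of 0.05; the offset understates the change of dim probes. Fold changes are the first-named group minus the second on this scale, ± SE, and group values are means of normalized intensity ± SD. A bound divides the brighter group's mean by the dim group's values raised to an intensity of 30, a limit set after the data were seen. The procedure was tested on simulated data.

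The genes and lists were chosen with earlier results of these data known. All 10 genes were named, with Cebpa and Mitf, up to 4 genes of each role list with the largest change past the test and no overlap, and the 2 genes most correlated with each gene whose group means span over 1 log2 unit. Some genes of the role lists that this rule names are left out of the text. Alternatives covered scaling, offset, filters, variance modelling, array weights, the arrays in the fit, a replicate block and leaving out each array; 3 were added after the data were seen: scaling on probes above background, the 12 arrays of cultured basophils alone, and only probes above background. Replicate numbers were not used to pair the samples. Arrays of the same number in different groups correlated between -0.245 and 0.215 in their deviations from the group means (6 of 45 pairs over 0.1). Arrays of different numbers correlated between -0.203 and 0.250 (13 of 90 pairs over 0.1). All groups were pooled here, so pairing of treated and untreated cultures of 1 genotype was not tested.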

Additional observations from a re-analysis of the deposited data

Results flagged for a closer look

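The effect of 4-hydroxytamoxifen differed between floxed and wild-type basophils for 3 of the 9 genes, by a direct test of the difference (limma, adjusted over all probes). Over all probes the difference was positive for 6.17% and negative for 6.46%. With only the 14844 probes above background it was positive for 2057 and negative for 2163 of them, and 4 of the 9 genes were called. For Hs6st2 the drug effect in floxed cells minus that in wild-type cells was 2.78 on the log2 scale, for Ndst2 it was 1.48 and for Ext2 -0.48. Hs6st2 and Ndst2 rose more in floxed cells, and Ext2 rose more in wild-type cells; the Ext2 difference no longer passed without between-array normalization (-0.29, adjusted p = 0.126). Groups of 3 arrays were not screened for single outlying samples.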

How the results depend on the processing

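Up to 30 alternative settings were run for 81 results (9 genes in 9 comparisons). Of 39 calls, 27 kept their direction and their side of the threshold in every setting, among them all 4 genes lower in fresh basophils than in mast cells and Hs6st2, Hs6st1 and Ndst2 in floxed cells against wild-type cells, both with the drug. Of 2394 recomputed values, 56 lost a call, 42 gained one and 4 turned sign where the reported or the new value was called; another 53 changed sign while called in no case, under several settings. The 4 came without between-array normalization: Ext2 (0.40), Ext1 (0.30) and Glce (0.50) in fresh basophils against mast cells and Ndst2 (-0.032) in treated against untreated wild-type cells. That setting moved the median of all probes by 0.20 in fresh basophils against mast cells, 0.15 in untreated wild-type cells against mast cells and 0.13 in the interaction, where median scaling moved it by -0.12. Without it, fresh basophils against mast cells had 7 genes called (3 higher, 4 lower) instead of 4, and treated against untreated wild-type cells 3 instead of 6. With only the arrays of the groups compared, treated floxed against mast cells had 3 called instead of 5, and leaving out single arrays gave 3 to 6.

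Splits of all probes into higher and lower calls moved by over 10 points as follows. Without normalization they were 8806 and 2508 (4832 and 5887 as reported) for fresh basophils against mast cells, 6713 and 3342 (4465 and 5904) for untreated wild-type and 5436 and 2873 (4158 and 5185) for treated floxed cells against mast cells, 4777 and 2916 (4190 and 3926) for treated floxed against treated wild type, 1418 and 2807 (2256 and 1921) for the untreated pair, 1387 and 4720 (2947 and 2677) for the drug in wild type, 2678 and 738 (1630 and 1708) for the interaction and 3369 and 6094 (4574 and 4641) for cultured against fresh basophils. With median scaling they were 2502 and 871 for the untreated pair, 1277 and 2352 (2620 and 2555) for the drug in floxed cells, 2448 and 1121 for the drug in wild type, 467 and 1435 for the interaction and 2880 and 4845 for cultured against fresh basophils; scaling on bright probes gave 1800 and 2536 for the untreated pair. The cause was not tested.

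With the replicate number as a block, 3 instead of 4 genes were called between the treated genotypes and 4 instead of 5 in treated floxed against mast cells, and the counts of the other 7 comparisons were as reported. Of all 26423 probes, 4068 were then higher and 3811 lower between the treated genotypes, and 4108 and 5106 in treated floxed against mast cells. Asking for at least a 2-fold change left 4, 2, 0, 2, 0, 2, 4, 1 and 2 genes in the comparisons of fresh basophils with mast cells, treated floxed with treated wild type, the untreated pair, the drug in floxed and in wild-type cells, the interaction, untreated wild type and treated floxed with mast cells, and cultured with fresh basophils. The share of all probes at this 2-fold threshold was not computed, so these counts have no background beside them.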
